A study of Mus musculus with 4 samples.

Results

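The accessible chromatin of 8 border macrophage marker genes, Mrc1, Cd163, Lyve1, Pf4, Cbr2, F13a1, Stab1 and Cd36, was described in 4 ATAC-seq peak lists from sorted microglia. ATAC-seq uses the transposase Tn5 to cut open DNA, so that positions with many cuts mark accessible chromatin. Every deposited peak that overlapped a gene body or the 20 kb on either side was taken. The genes were chosen from earlier results on these same lists, and the regions by the presence of a peak, so the values below are a description and carry no test. Merging the strict peaks of the 4 libraries, those with a deposited −log10 q of 2 or more, gave 155546 regions in the genome, and 88 of them lay in the 8 windows, which together spanned 0.785 Mb.

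Border macrophages live in the meninges, around the vessels and in the choroid plexus of the brain, whereas microglia live inside the brain tissue. Both carry many of the same macrophage genes, but border macrophages are known for scavenger receptors and the mannose receptor, which microglia express at low levels in the healthy brain. IRF8 is a transcription factor of myeloid cells, and it binds DNA poorly alone and often together with PU.1 at a composite element. The comparison addressed how accessible chromatin differs between microglia with and without IRF8.

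Of the libraries, 2 were labelled WT and 2 IRF8KO, all from untreated C57BL/6 mice aged 3 months. Microglia were isolated without enzymes and sorted by flow cytometry. Which part of Irf8 was removed, and in which cells, is not given in the sources used here. The labels speak of a WT and an IRF8KO brain and do not say that replicates came from separate animals, so the spread between replicates may be technical. Means below are followed by ± SD over the 2 libraries of a genotype. With 2 against 2 libraries an exact two-sided permutation test cannot give a p below 0.333, and none was made.

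Depth followed genotype. The WT libraries held 46948938 and 48896408 tags and the IRF8KO libraries 78793572 and 66224648, on average 1.51 times as many. Pileup, the number of extended cut sites stacked at a summit, was therefore divided by the tags of the library and multiplied by 1000000, and every level below is that normalised pileup. The median over the 58550 regions with a peak in all 4 libraries was 0.767 and 0.614 in WT against 0.444 and 0.695 in IRF8KO, so IRF8KO replicate 1 stood lowest. The median log2 ratio of IRF8KO over WT across these regions was −0.28, and it was 0.00 once each library was scaled to its own median. At the promoter of Irf8 itself a strict peak was present in every library, at 2.07 and 1.49 in WT against 0.863 and 1.36 in IRF8KO, which does not test the deletion.

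The labelled cell type was checked against marker promoters, those within 1 kb of any transcription start site of the gene. Strict peaks were present at 10 and 10 of 10 microglia promoters in the WT libraries and at 9 and 9 in the IRF8KO libraries. The missing promoter was that of Sall1, a transcription factor of microglial identity, which read 2.17 and 2.05 in WT and had no strict peak in IRF8KO. Summed over the 10 microglia promoters, the level was 27.3 and 19.6 in WT against 11.4 and 18.7 in IRF8KO. The same sum over 14 border macrophage promoters, the 8 genes described here among them, was 6.58 and 5.32 in WT against 8.78 and 15.3 in IRF8KO. Over 20 border macrophage genes outside the 8 described here the sum was 23.6 and 18.3 in WT against 16.9 and 27.2 in IRF8KO. The groups overlapped in this sum. Ms4a7, Folr2, Clec12a, Mgl2, Siglec1 and Timd4 stood both in this list and in that of 14, so the sums share genes. In bulk libraries a change in the share of cells of a type and a change in accessibility per cell cannot be told apart.

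Markers of other cells moved in both directions. The summed promoter level of 7 endothelial genes was 8.12 and 6.63 in WT against 1.81 and 2.54 in IRF8KO, with Cdh5 the largest term (5.86 and 4.81 against 0.647 and 0.936) and no strict promoter peak at Tek and Emcn. Pecam1 did not follow, at 0.618 and 0.573 in WT against 0.533 and 0.876 in IRF8KO. For 6 monocyte genes it was 2.17 and 1.86 in WT against 0.876 and 1.60 in IRF8KO, and the defining promoters of Ly6c2, Ccr2 and Plac8 had no strict peak anywhere. For 6 platelet genes, the list nearest to Pf4, it was 2.02 and 2.21 in WT against 1.04 and 1.46 in IRF8KO, with no peak at Gp1bb, Ppbp, Treml1 or Gp6. All 3 sums were lower in both IRF8KO libraries than in either WT library. Neutrophil genes read 1.19 and 0.491 in WT against 0.178 and 0.619 in IRF8KO, astrocyte genes 1.09 and 0.532 against 1.10 and 1.98, and B or T cell genes 1.11 and 1.31 against 3.44 and 3.44. Neuron genes read 0.767 and 1.10 in WT against 0.596 and 0.332 in IRF8KO, and oligodendrocyte genes 2.04 and 1.47 against 0.495 and 1.15. Within the astrocyte list the promoter of Aldh1l1 was higher in both IRF8KO libraries and that of Gfap lower. The part of these cells in the results was not tested.

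Sequences at a selection of the regions that differed are given first, each a 201 bp window centred on the summit, on the plus strand of GRCm38 and credited to RefSeq. They include the region with the widest difference (Cd36 8.66 kb into the gene), Cd36 regions with a peak in IRF8KO only or a lower level there, and the promoter of Mrc1. At Stab1 and at Cd163 they include the region that differed and had the highest mean over the 4 libraries. Capitals mark matches on either strand to any of 9 motifs: ETS-IRF (GGAANNGAAA), ISRE (GAAANNGAAA), PU.1 (GAGGAAGT), AP-1 (TGACTCA), CEBP (TTGCNNAA), RUNX (TGTGGTTT), MAF half-site (TGCTGAC), E-box (CACGTG) and DR1 (AGGTCA repeated with 1 base between). The letters of AP-1 can overlap those of the MAF half-site, those of PU.1 can overlap ETS-IRF, and those of ETS-IRF can overlap the ISRE.
Cd36 intron, chr5:17880037-17880237, higher in IRF8KO: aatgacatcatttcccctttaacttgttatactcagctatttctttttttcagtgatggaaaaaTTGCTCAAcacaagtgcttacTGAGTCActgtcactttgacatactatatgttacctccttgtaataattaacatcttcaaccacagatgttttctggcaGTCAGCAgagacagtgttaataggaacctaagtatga
Cd36 intron, chr5:17876738-17876938, peak in IRF8KO only: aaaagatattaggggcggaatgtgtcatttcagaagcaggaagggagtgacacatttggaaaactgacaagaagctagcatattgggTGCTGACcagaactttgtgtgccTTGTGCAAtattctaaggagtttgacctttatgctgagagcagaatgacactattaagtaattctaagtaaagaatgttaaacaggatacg
Cd36 intron, chr5:17839686-17839886, peak in IRF8KO only: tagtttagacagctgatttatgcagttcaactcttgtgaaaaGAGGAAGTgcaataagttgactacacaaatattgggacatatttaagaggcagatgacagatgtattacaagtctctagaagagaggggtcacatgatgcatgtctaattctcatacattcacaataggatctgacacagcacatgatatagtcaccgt
Cd36 intron, chr5:17854576-17854776, lower in IRF8KO: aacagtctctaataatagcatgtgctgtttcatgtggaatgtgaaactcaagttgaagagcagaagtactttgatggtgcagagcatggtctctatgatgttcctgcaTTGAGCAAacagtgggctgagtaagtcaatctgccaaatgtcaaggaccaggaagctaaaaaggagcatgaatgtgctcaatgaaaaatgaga
Mrc1 upstream, chr2:14228627-14228827, higher in IRF8KO: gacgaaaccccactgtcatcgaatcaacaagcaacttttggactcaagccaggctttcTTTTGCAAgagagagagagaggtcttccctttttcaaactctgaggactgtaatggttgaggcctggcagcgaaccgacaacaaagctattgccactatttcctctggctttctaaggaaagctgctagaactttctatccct
Stab1 intron, chr14:31166249-31166449, higher in IRF8KO: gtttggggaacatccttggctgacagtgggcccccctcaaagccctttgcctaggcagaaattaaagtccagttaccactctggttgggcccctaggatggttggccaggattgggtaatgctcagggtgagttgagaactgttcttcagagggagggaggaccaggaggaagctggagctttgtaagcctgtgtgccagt
Cd163 exon, chr6:124320469-124320669, peak in IRF8KO only: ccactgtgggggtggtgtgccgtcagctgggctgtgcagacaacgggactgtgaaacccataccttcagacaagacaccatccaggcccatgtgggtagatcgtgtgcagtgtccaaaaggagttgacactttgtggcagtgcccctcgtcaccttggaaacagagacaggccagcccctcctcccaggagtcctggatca

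The Cd36 window at chr5:17880037-17880237 held a CEBP match (TTGCTCAA), an AP-1 match (TGAGTCA) and a MAF half-site (GTCAGCA), at 32 bp and 12 bp before and 67 bp after the summit as read on the plus strand. The Cd36 window peaking in IRF8KO only at chr5:17876738-17876938 held a MAF half-site 10 bp before the summit and a CEBP match 14 bp after it. PU.1 was matched in the window at chr5:17839686-17839886, CEBP in the lower Cd36 window and in that of Mrc1, and none of the 9 motifs in the Stab1 and Cd163 windows. These are matches of letters and not shown sites.

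Regions were sorted by where a peak was present. Of the 88 regions, 45 (51.1%) had a deposited peak of any strength in all 4 libraries. IRF8KO-only regions, with a strict peak in both IRF8KO libraries and no deposited peak in either WT library, numbered 11 (12.5%), against 3.86% of all 155546 regions. WT-only regions, by the converse definition, numbered 3 (3.41%), against 5.58% of all regions. The share of IRF8KO-only regions was thus above the background and that of WT-only regions below it. At a −log10 q of 5 or more, 6 of 61 regions (9.84%) were IRF8KO-only, beside 3.51% of all 85845, and 1 (1.64%) was WT-only, beside 5.16%. The other 29 regions were present in part of the libraries, at a normalised pileup of 0.634 or less, and 1 of these had a strict peak in both genotypes. A strict peak in IRF8KO alone was present in 17 (19.3% of the 88, against 22.4% of all regions) and in WT alone in 11 (12.5%, against 23.3%).

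Depth bears on such absences. Carried to the depth of a WT library, 10 of the 11 IRF8KO-only regions had a pileup at or above 9, the lowest pileup of any strict WT peak. The exception lay 6.45 kb upstream of Pf4 and came to as little as 7.75. All 3 WT-only regions, carried to IRF8KO depth, were above the lowest strict IRF8KO pileup. These bars are the lowest over the genome, and passing them does not assure a strict peak. In WT replicate 1 a pileup of 12, 107 kb from the Mrc1 start, was below the strict threshold. Leaving out 1 library, so that fewer libraries had to hold or to lack a peak, moved the IRF8KO-only and WT-only counts. Without IRF8KO replicate 1 there were 25 IRF8KO-only regions. WT-only regions numbered 8 without WT replicate 1, 7 without WT replicate 2 and 5 without IRF8KO replicate 2. No share over all regions is given under these looser rules, so these counts have no background beside them.

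Among the 45 regions with a peak in all 4 libraries, both IRF8KO values lay above both WT values in 13, against 11.9% of all such regions. Both lay below in 9, against 37.1%, and the groups overlapped in 23. A difference of at least 2-fold between the means without overlap was seen upward in 10 regions (22.2%), against 5.39% of all regions, and downward in 4 (8.89%), against 12.6%. After scaling to library medians it was seen upward in 13, against 8.56% of all regions, and downward in 3, against 7.81%. The upward share at the marker genes was above the background on both scales, and the downward share was below it on the first scale. Without IRF8KO replicate 1 the downward count was 2. Regions present in all 4 libraries that met neither rule had log2 ratios from −0.88 to 0.86. The median log2 ratio over the 45 regions was −0.03, beside −0.28 over all 58550, and 0.22 after scaling to library medians. The plot of log2 ratios by gene shows both distributions.

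**Figure D1:**
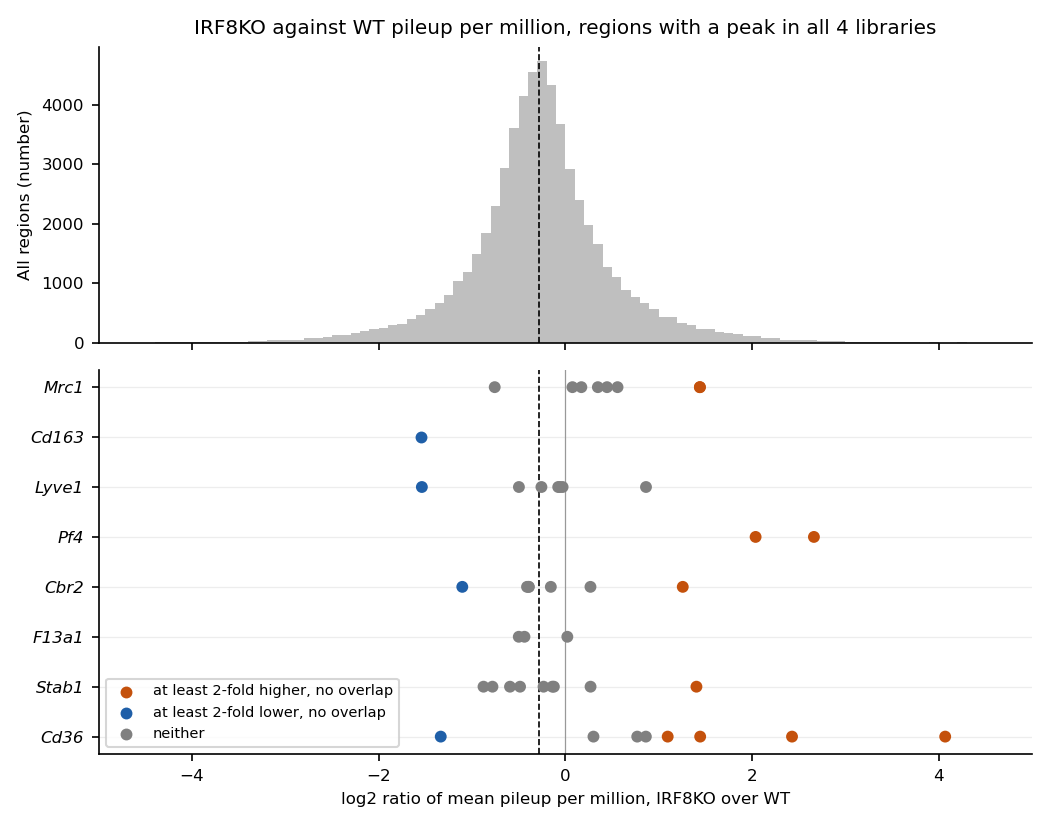
The upper panel counts all 58550 regions with a peak in all 4 libraries by the log2 ratio of mean normalised pileup, IRF8KO over WT, with the median of −0.28 as a dashed line. Each point in the lower panel is 1 of the 45 such regions at a marker gene, with 10 coloured as at least 2-fold higher and 4 as at least 2-fold lower without overlap, and Cd36, Pf4 and Mrc1 hold 8 of the 10 higher ones.

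Counted by gene, 5 of the 8 markers held at least 1 IRF8KO-only region, against 20.7% of 21755 protein-coding genes, and 4 held at least 2, against 5.96%. At least 1 WT-only region was found at 3 of the 8, against 28.1%. Gene windows differ in length with the gene, so these shares are not matched for length. Of the 11 IRF8KO-only regions 7 were nearest to a start site of the marker gene. Those in the Pf4 and Stab1 windows were nearest to neighbouring genes. The 8 windows together held 53 and 55 strict peaks in WT against 60 and 76 in IRF8KO, a mean of 54 ± 1.41 against 68 ± 11.3 (SD, n = 2 each). The groups did not overlap, and the difference of 14 peaks was carried mostly by IRF8KO replicate 2: it was 6 without that library and 22 without IRF8KO replicate 1. As a share of all strict peaks of a library the windows held 0.0544% and 0.0556% in WT and 0.0714% and 0.0792% in IRF8KO. IRF8KO replicate 2 read above replicate 1 in 60 of the 65 marker regions with both values, and in 89.9% of such regions in the genome.

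**Figure D2:**
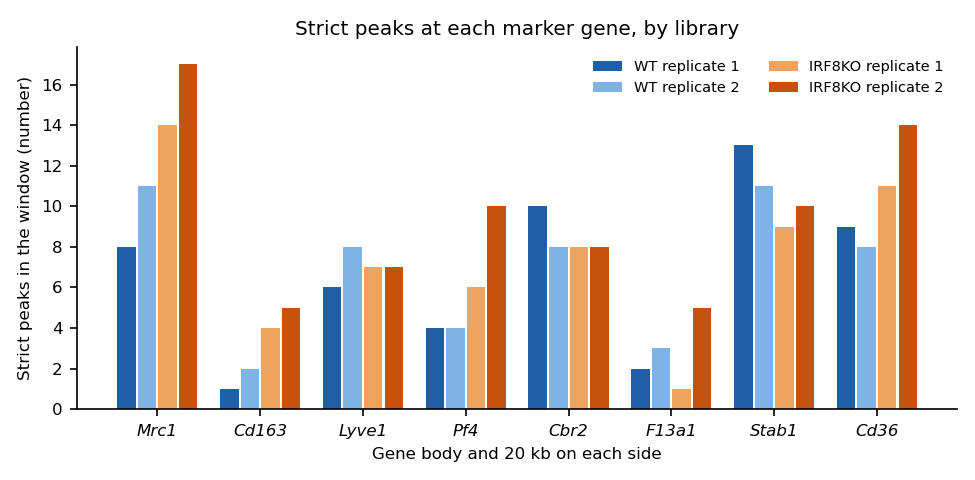
Bars give the number of strict peaks in each gene's window (gene body and 20 kb on each side) in each of the 4 libraries. Both IRF8KO libraries exceed both WT libraries at Mrc1, Cd163, Pf4 and Cd36, the groups overlap or touch at Lyve1, Cbr2 and F13a1, and at Stab1 both lie below.

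The receptors are described first. Cd36, a class B receptor that takes up fatty acids and oxidised lipoproteins, occupies 17781690 to 17888801 of chromosome 5 (minus strand) and held 18 regions, all nearest to its own start sites. The widest difference at any marker gene lay in a Cd36 intron, 8.66 kb into the gene (17879880 to 17880384). The level there was 0.277 and 0.245 in WT against 3.43 and 5.35 in IRF8KO, a mean of 0.261 ± 0.0223 against 4.39 ± 1.36 (SD, n = 2 each). Both IRF8KO libraries stood far above both WT libraries, by 16.8-fold (log2 4.07, and 4.34 scaled to library medians). In raw pileup these were 13 and 12 cut sites in WT and 270 and 354 in IRF8KO.

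The region of the same gene that was most accessible in WT went the other way. This region, 34.1 kb into the gene (17854491 to 17854979), read 8.22 and 6.09 in WT against 2.08 and 3.59 in IRF8KO, a mean of 7.16 ± 1.5 against 2.84 ± 1.07 (SD, n = 2 each). Both WT libraries were higher, by 2.52-fold, and the log2 ratio of −1.33 became −0.99 without IRF8KO replicate 1. The adjoining region at 17854219 to 17854400 was WT-only, at 2.77 and 1.64, and was the most accessible WT-only region of the 3. Regions with opposite differences thus lay within the introns of this gene.

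Around them, 2 Cd36 regions were IRF8KO-only. The region 12.0 kb into the gene (17876706 to 17877118) read 0.787 and 1.3 in IRF8KO, and the region 49.0 kb into it (17839621 to 17839957) read 0.596 and 1.09. There was no deposited WT peak at either. The region at 46.6 kb read 0.149 and 0.164 in WT against 0.596 and 1.09 in IRF8KO, 5.38-fold higher without overlap. Its WT peaks were below the strict threshold, with pileups of 7 and 8, so the region entered through the IRF8KO libraries. Its neighbour at 46.2 kb read 0.277 and 0.184 against 0.470 and 0.785, and the region at 41.7 kb read 0.234 and 0.286 against 0.419 and 0.695. The latter was higher by 2.14-fold, and by less than 2-fold without WT replicate 1 (log2 0.96) or without IRF8KO replicate 2 (log2 0.69). At the start of a shorter Cd36 transcript the level was 0.213 and 0.184 in WT against 0.127 and 0.362 in IRF8KO, with overlap. All of these lay in introns, and the regions nearest to the start of the gene were those at 8.66 kb and, upstream, a peak at 0.211 in IRF8KO replicate 2 alone.

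Mrc1 encodes the mannose receptor CD206, and occupies 14229392 to 14332057 of chromosome 2 (plus strand) with 17 regions, all nearest to its own start. Its promoter held 2 regions, and both were higher in IRF8KO. The one 665 bp upstream (14228567 to 14228870) read 0.341 and 0.286 in WT against 0.571 and 1.13 in IRF8KO, a mean of 0.314 ± 0.0385 against 0.852 ± 0.397 (SD, n = 2 each). It was 2.72-fold higher without overlap, and log2 1.44 became 0.87 without IRF8KO replicate 2. The one at the start (14228956 to 14229464) read 0.213 and 0.205 in WT against 0.470 and 0.664 in IRF8KO, also 2.72-fold higher without overlap. In WT the region at the start was near the limit of detection, with 10 cut sites in each library beside a lowest strict pileup of 9.

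Beyond its promoter, Mrc1 had IRF8KO-only regions 4.77 kb upstream, at 0.254 and 0.227, and 3.73 kb into the gene, at 0.254 and 0.317. Both were weak. Its most accessible region, 111 kb from the start and downstream of the gene (14340346 to 14340756), read 2.98 and 1.82 in WT against 2.59 and 3.96 in IRF8KO, with the groups overlapping. The window held 8 and 11 strict peaks in the WT libraries and more, 14 and 17, in the IRF8KO libraries, and no Mrc1 region was 2-fold lower.

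Cd163 encodes the haemoglobin-haptoglobin scavenger receptor and occupies 124304656 to 124330527 of chromosome 6 (plus strand). It held 5 regions, and the start of the gene had none in any library. In IRF8KO 3 regions stood inside the gene within a short stretch, and none of them had a deposited WT peak. The strongest of them, 15.9 kb into the gene over a coding exon and the start of a shorter annotated transcript (124320397 to 124320762), read 0.520 and 1.10. Those at 15.0 kb and 17.0 kb, with summits in introns, read 0.355 and 0.529, and 0.419 and 0.695. The region 7.09 kb upstream went the other way, at 0.618 and 0.491 in WT against 0.152 and 0.227 in IRF8KO, 2.93-fold lower without overlap.

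Stab1 encodes stabilin-1, a scavenger receptor of macrophages and sinusoidal endothelium, and occupies 31139013 to 31168641 of chromosome 14 (minus strand). Of its 14 regions 6 were nearest to its own start, the others lying at the neighbours Nisch, Nt5dc2 and Smim4. An intronic region 2.29 kb into the gene (31166043 to 31166641) read 2.19 and 1.90 in WT against 5.0 and 5.84 in IRF8KO, a mean of 2.05 ± 0.206 against 5.42 ± 0.596 (SD, n = 2 each). It was 2.65-fold higher without overlap, and of all regions that were 2-fold higher at these genes it was the most accessible in both genotypes. The peak at the main start of Stab1 read 0.469 and 0.470 in WT and 0.483 in IRF8KO replicate 2. It was below the strict threshold in IRF8KO replicate 2, and IRF8KO replicate 1 had no peak there. A region 7.96 kb into the gene, within 1 kb of the start of a shorter transcript, read 2.73 and 2.29 in WT against 1.85 and 2.70 in IRF8KO, with overlap. The summed endothelial promoters are given above.

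No other Stab1 region with a peak in all 4 libraries differed by 2-fold. The region with the highest mean over the 4 libraries lay at the Smim4 promoter. It read 6.03 and 3.78 in WT against 3.01 and 4.0 in IRF8KO, with overlap. In both IRF8KO libraries the intronic region described above was higher. One weak IRF8KO-only region in Nt5dc2 read 0.228 and 0.272. The window held 13 and 11 strict peaks in WT against 9 and 10 in IRF8KO, so both IRF8KO libraries held fewer than either WT library.

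**Figure D3:**
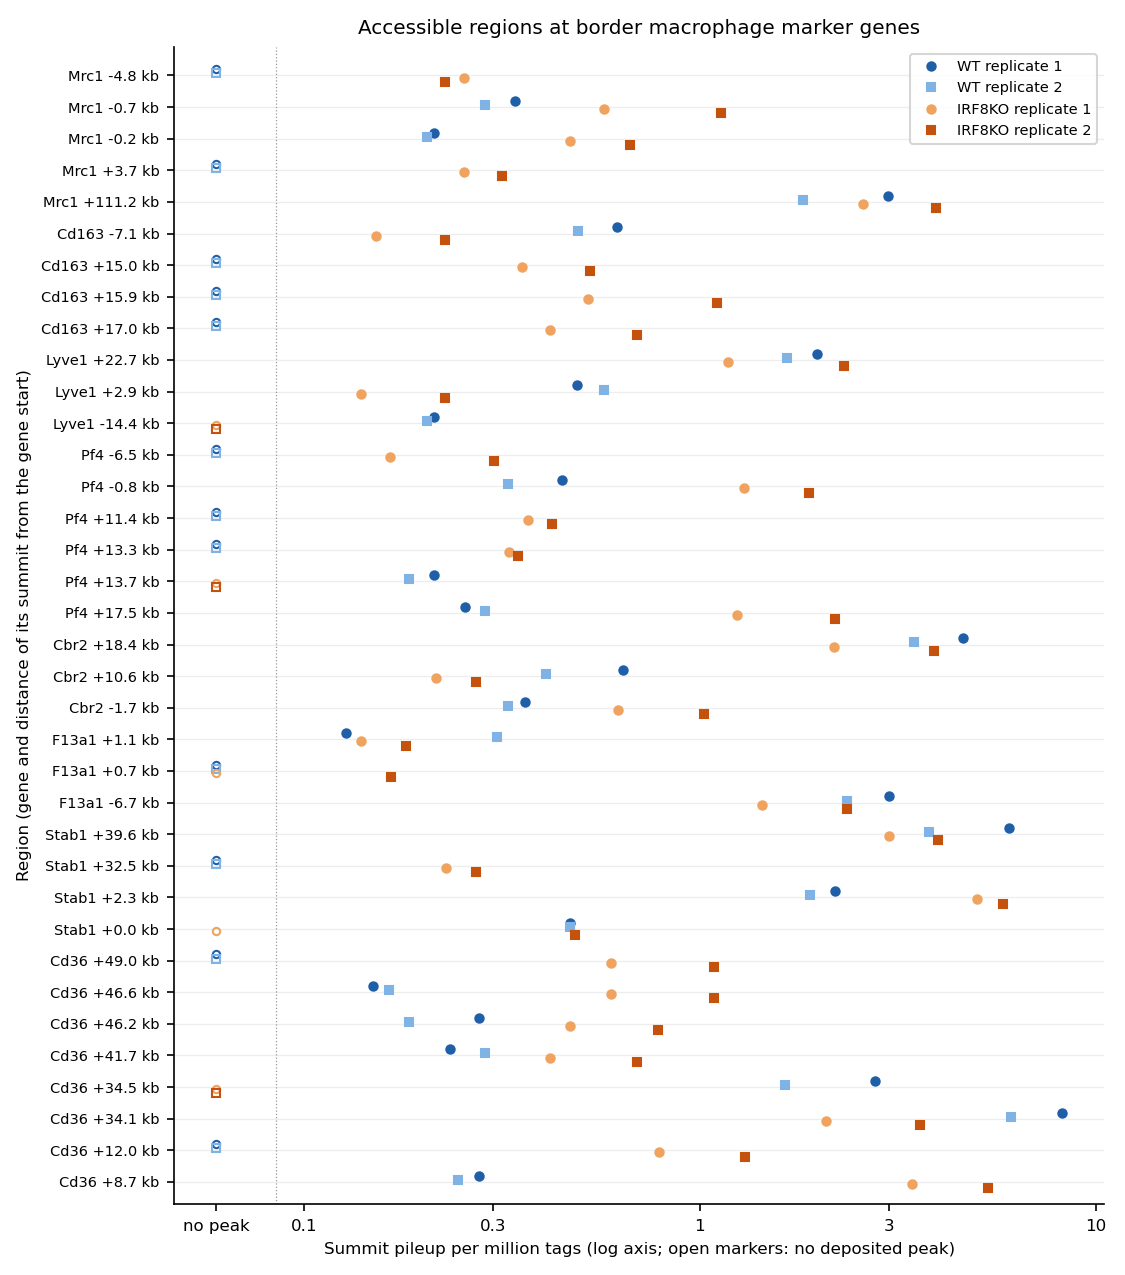
Each row is a region named for a marker gene by the distance of its summit from the gene start, and each marker is the normalised summit pileup (log axis) in 1 of the 4 libraries, with open markers on the left for no deposited peak. In the Cd36 row at +8.7 kb the IRF8KO libraries (3.43 and 5.35) lie far to the right of the WT libraries (0.277 and 0.245), and in the row at +34.1 kb they lie to the left.

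Lyve1 encodes a hyaluronan receptor of lymphatic endothelium and of perivascular and meningeal macrophages, and occupies 110850607 to 110863239 of chromosome 7 (minus strand). None of its 10 regions was IRF8KO-only, and none was at least 2-fold higher in IRF8KO by normalised pileup. After scaling to library medians 1 was, in Rnf141 (log2 1.04), with a normalised pileup of 0.170 and 0.245 in WT against 0.228 and 0.529 in IRF8KO. No strict peak lay at its promoter in any library. An intronic region 2.90 kb into the gene read 0.490 and 0.573 in WT against 0.140 and 0.227 in IRF8KO, 2.90-fold lower without overlap, and its peak in IRF8KO replicate 1 was below the strict threshold. A WT-only region 14.4 kb upstream, within Mrvi1, was weak at 0.213 and 0.205. The most accessible region of the window, in the neighbour Rnf141, read 1.98 and 1.66 in WT against 1.18 and 2.31 in IRF8KO, with overlap.

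Pf4, the chemokine CXCL4 of platelets and of border macrophages, is a short gene (chromosome 5, 90772435 to 90773383, plus strand). It lies in a cluster with the chemokine genes Ppbp, Cxcl5 and Cxcl3, and only 2 of its 9 regions were nearest to its own start. The region over its promoter (90771284 to 90772727) read 0.447 and 0.327 in WT against 1.29 and 1.89 in IRF8KO, a mean of 0.387 ± 0.0849 against 1.59 ± 0.419 (SD, n = 2 each). Both IRF8KO libraries were above both WT libraries, by 4.11-fold.

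That Pf4 region held several summits, and the main ones were all higher in IRF8KO. About 821 bp upstream the level was 0.447 and 0.307 in WT against 0.914 and 1.89 in IRF8KO. At the start site itself, 5 to 14 bp upstream, it was 0.319 and 0.327 in WT against 1.29 and 1.81 in IRF8KO. About 946 bp upstream it was 0.277 and 0.266 against 0.736 and 1.25. The groups did not overlap at any of the 3 positions. The summed platelet promoters are given above, and the part of platelets at this region was not tested.

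Farther along the cluster, the region 17.5 kb downstream of the Pf4 start, in Cxcl3, read 0.256 and 0.286 in WT against 1.24 and 2.19 in IRF8KO, 6.34-fold higher without overlap. IRF8KO-only regions lay 6.45 kb upstream, nearest to Ppbp, at 0.165 and 0.302, and 11.4 kb downstream at 0.368 and 0.423. Another, at the Cxcl3 promoter, read 0.330 and 0.347, and close to it lay a WT-only region at 0.213 and 0.184. Which gene of the cluster these regions serve was not tested. Strict peaks of this window came to 4 and 4 in WT against 6 and 10 in IRF8KO.

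**Figure D4:**
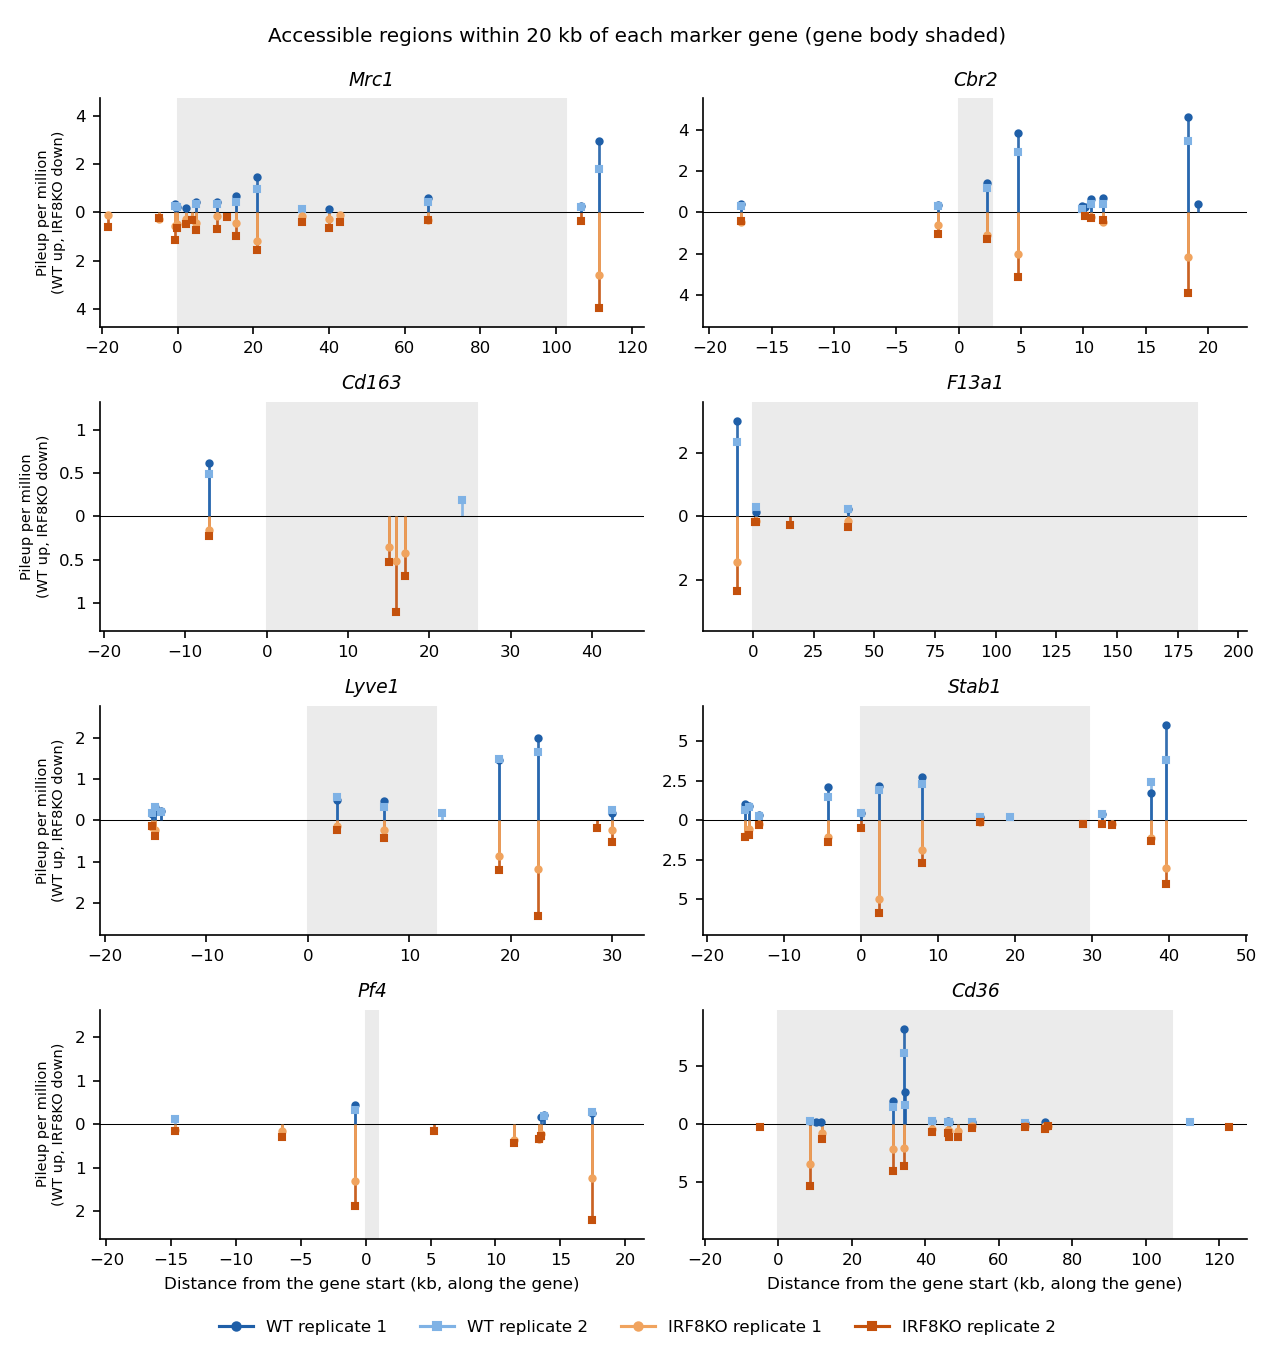
Each panel plots the normalised pileup of every region in a gene's window against the distance of its summit from the gene start in kb, read along the gene, with the gene body shaded, the WT libraries above the line and the IRF8KO libraries below it. The tall WT stems at 34.1 kb and the tall IRF8KO stems at 8.66 kb stand in the Cd36 panel, and the 3 IRF8KO-only regions of Cd163 stand inside its gene body.

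The enzymes held few regions that differed. Cbr2, a carbonyl reductase, occupies 120729489 to 120732114 of chromosome 11 (minus strand) in a dense stretch of genes, and 2 of its 10 regions were nearest to its own start. The region 1.66 kb upstream (120733597 to 120733956) read 0.362 and 0.327 in WT against 0.622 and 1.03 in IRF8KO, 2.39-fold higher without overlap, and log2 1.26 became 0.85 without IRF8KO replicate 2. A region at a shorter-transcript start inside Cbr2 read 1.45 and 1.17 in WT against 1.08 and 1.27 in IRF8KO, with overlap. A region at the promoter of Rac3 read 0.639 and 0.409 in WT against 0.216 and 0.272 in IRF8KO. It was 2.15-fold lower, but by less than 2-fold after scaling to library medians (log2 −0.77) and without WT replicate 1 (log2 −0.75) or IRF8KO replicate 1 (log2 −0.95). The most accessible region, at the promoter of Cenpx, read 4.62 and 3.48 in WT against 2.18 and 3.91 in IRF8KO, with overlap.

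F13a1 encodes the A subunit of coagulation factor XIII and occupies 36867178 to 37050244 of chromosome 13 (minus strand). It has the longest gene body of the 8, yet only 5 regions were found in its window and none differed by 2-fold. The promoter region 1.08 kb into the gene, with its summit in an untranslated exon, read 0.128 and 0.307 in WT against 0.140 and 0.181 in IRF8KO, with overlap. Its most accessible region, 6.65 kb upstream, read 3.00 and 2.35 in WT against 1.43 and 2.36 in IRF8KO, with overlap. A second promoter peak, at 0.166, was present in IRF8KO replicate 2 alone.

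Other genes known from border macrophages were counted in the same way. In the windows of 20 such genes, 33 of 241 regions (13.7%) were IRF8KO-only and 16 (6.64%) WT-only, beside the 3.86% and 5.58% of all regions given above. IRF8KO-only regions lay at 11 of the 20 genes, beside 20.7% of protein-coding genes, and 10 of the 33 lay at Dab2, an endocytic adaptor. Of the 94 regions with a peak in all 4 libraries, 11 (11.7%) were at least 2-fold higher and 8 (8.51%) at least 2-fold lower without overlap, beside 5.39% and 12.6% of all such regions. The promoter of Siglec1, a sialic acid receptor, had no strict WT peak and read 0.838 and 1.06 in IRF8KO, and that of Ms4a7 had none in WT and read 0.558 and 0.695. The promoter of Timd4, a phosphatidylserine receptor, went the other way, at 0.319 and 0.389 in WT and with no strict IRF8KO peak. In the windows of the 10 microglia genes 6 of 195 regions were IRF8KO-only and 13 WT-only.

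Over the 88 marker regions, motif matches within 100 bp of the summit were set beside those in the same windows of all 155546 regions. AP-1 was matched in 13 marker regions (14.8%), against 5.91% of all regions, and in 5 of the 21 regions that were IRF8KO-only or 2-fold higher. CEBP was matched in 11 (12.5%, against 9.54%), PU.1 in 8 (9.09%, against 7.73%) and the MAF half-site in 6 (6.82%, against 5.02%). ETS-IRF, the composite element of PU.1 and IRF8, was matched in 2 (2.27%, against 4.31%) and the ISRE in 1 (1.14%, against 3.12%). RUNX was matched in 4 (4.55%, against 2.18%), the E-box in 3 (3.41%, against 4.09%) and DR1 in 0 (0.0341% of all regions). Of the 7 regions that were WT-only or 2-fold lower, 1 held AP-1, 1 held CEBP and none held ETS-IRF.

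The limit of 20 kb decided which regions entered. The region just outside it, 0.029 kb beyond the Stab1 window at 31188670 to 31189167, read 0.703 and 0.593 in WT against 1.54 and 2.33 in IRF8KO. The nearest one inside that edge read 1.02 and 0.675 in WT against 0.99 and 1.06 in IRF8KO. At Mrc1 the region 1.65 kb inside the upstream edge had no WT peak and read 0.127 and 0.619 in IRF8KO, and the one 2.24 kb outside read 0.682 and 0.818 in WT against 0.838 and 1.40 in IRF8KO.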

How the data were processed

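Chromatin accessibility was measured in 2 WT and 2 IRF8KO libraries of sorted microglia. Per the file headers, MACS2 2.1.1.20160309 was run by the authors once per library, with no control and a p cutoff of 0.01, moving cut sites by 37 bp, extending them to 73 bp and taking the local background over 10 kb. The submitters' processing notes name mm10, Bowtie2, bcl2fastq and deepTools. Tag size was 50 bp in WT and 49 bp in IRF8KO, so it followed genotype as depth did. The deposited pileup is a signal in whole numbers, although the headers name scaling to depth. Fold enrichment, deposited as a ratio over local background, was not used in the comparisons. The deposited p and q values are −log10 values, and the q column was used although the headers call it not calculated. Normalised pileup (pileup per 1000000 tags) assumes that pileup scales with tag number, and peaks called at a fixed q move with depth.

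From these lists, distinct intervals were given their best summit, and strict peaks on 20 chromosomes were merged into regions with Python 3.11.15 and pandas 2.3.3. A library's level in a region is its highest summit there. Overlap meant at least 1 bp. Genes and start sites came from GENCODE M21 and bases from the RefSeq GRCm38.p6 genome, read with pysam 0.24.0. Coordinates are counted from 1, and 0 peaks lay beyond a chromosome end. The script that sorts regions was checked on simulated lists of known classes. Named were each gene's promoter regions, every WT-only or IRF8KO-only region, every region 2-fold different without overlap, and the most accessible region. The latter was the region with the highest mean over the 4 libraries, an absent peak counting as 0. Sequences of the other regions that differed are not reported here. Genes named from other lists, and those in the printed windows, were chosen after their values were seen. The members, gene lists and motifs were chosen with earlier results of these data known. The alternatives were −log10 q of 5, every deposited peak, flanks of 5 kb and 50 kb, overlap of at least 0.5 of the shorter peak, scaling to library medians, and leaving out each library.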

Additional observations from a re-analysis of the deposited data

How the results depend on the processing

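With 2 libraries per genotype and depth and tag size following genotype, no setting separates genotype from these, and a region listed as absent may hold signal below the peak threshold. At a −log10 q of 5 the windows held 1 WT-only and 6 IRF8KO-only regions. With flanks of 5 kb they held 1 WT-only and 8 IRF8KO-only regions, with 9 at least 2-fold higher and 2 at least 2-fold lower. With flanks of 50 kb they held 5 WT-only and 16 IRF8KO-only regions, with 14 higher and 4 lower. No share over all regions is given for these flanks or for leaving out a library. Leaving out 1 library at a time gave 3 to 8 WT-only regions, 12 to 25 IRF8KO-only regions, 7 to 14 at least 2-fold higher, 2 to 6 at least 2-fold lower, and a strict peak difference of 6 to 22. The lone library of a genotype then has no spread. The larger counts of WT-only and IRF8KO-only regions come with fewer libraries having to hold or to lack a peak. The cause of the other moves was not tested. The counts under every deposited peak, the overlap of 0.5 and library medians stayed within 1.5 times the reported ones. The log2 ratios of 20 named regions were recomputed under library medians and without each library, and the report names those that fell under 2-fold. Leaving out 1 of 2 libraries moves a mean by less than their SD by construction, so no stability is read from it. The Stab1 intron moved from log2 1.40 to 1.72 under library medians, and 0 called values changed sign. A sign differed in 4 cases, at the uncalled regions of Lyve1 in Rnf141 and of the F13a1 promoter. No paired analysis was possible because the labels do not say that replicate numbers pair across genotypes, and the results come from no test.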
